A study of Drosophila melanogaster with 2 samples.

Results

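The subject is a set of 31 Drosophila melanogaster genes with maternal and germline roles, taken by name, out of 13968 protein-coding genes on the chromosome arms. They were divided by known role into 12 localized maternal factors (vas, nos, osk, grk, bcd, gcl, pgc, tud, swa, stau, exu and BicD), 7 translational regulators (png, smg, me31B, BicC, cup, orb and pum) and 12 genes of the piRNA pathway (piwi, aub, AGO3, spn-E, armi, zuc, krimp, qin, tej, rhi, del and cuff). Chromatin immunoprecipitation with sequencing (ChIP-seq) had been used to map Taf1, the largest subunit of the general transcription factor TFIID, in whole embryos aged 0 to 24 h. The embryos came from a transgenic strain that expresses a Taf1-eGFP fusion protein from an insertion, and an anti-GFP antibody was used for the precipitation. The promoter that drives the fusion is not given in the sources used here. There was 1 group with 2 biological replicates, all embryos carried the fusion, and no treatment is listed, so genes and peak lists were compared and no conditions. The files list peaks and no read counts, and how deeply each library was sequenced is unknown.

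TFIID recognises core promoters through the TATA-binding protein and its associated factors, of which Taf1 contacts DNA around the transcription start site (TSS). The genes described here are known mainly for transcription in the female germline: their RNAs and proteins are loaded into the egg, where they set up the body axes, control translation before the zygotic genome becomes active and build the germ plasm from which the pole cells form. The piRNA pathway silences transposons in the germline with small RNAs bound by Piwi-family Argonaute proteins. Whole embryos hold few germ cells among many somatic cells, and occupancy in fewer cells cannot be told apart here from less occupancy per cell.

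Taf1 summits were found at the promoters of 5 of the 31 genes: bcd, exu, orb, spn-E and cuff. A promoter summit is the highest point of a peak of the authors' larger pooled thresholded list that lies within 500 bp of any TSS of the gene. The share was 16.1%, with an exact 95% interval of 5.45 to 33.7, against 13.2% of all protein-coding genes (1850 of 13968). The share of these genes was thus close to the background. By role, promoter summits were found at 2 of 12 localized maternal factors (16.7%, interval 2.09 to 48.4), 1 of 7 translational regulators (14.3%, 0.361 to 57.9) and 2 of 12 piRNA pathway genes (16.7%, 2.09 to 48.4). The 3 roles could not be separated at these numbers. At 4 of the 5 promoters the summit was shared with a gene on the opposite strand whose TSS was nearer to it. Only the bcd summit had no second gene within 500 bp. When each summit was given only to its nearest TSS, bcd alone of the 5 kept one. Of all 1850 protein-coding genes with a promoter summit, 1336 did, and the difference was not tested. Intervals of shares cover counting error over genes only.

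**Figure D1:**
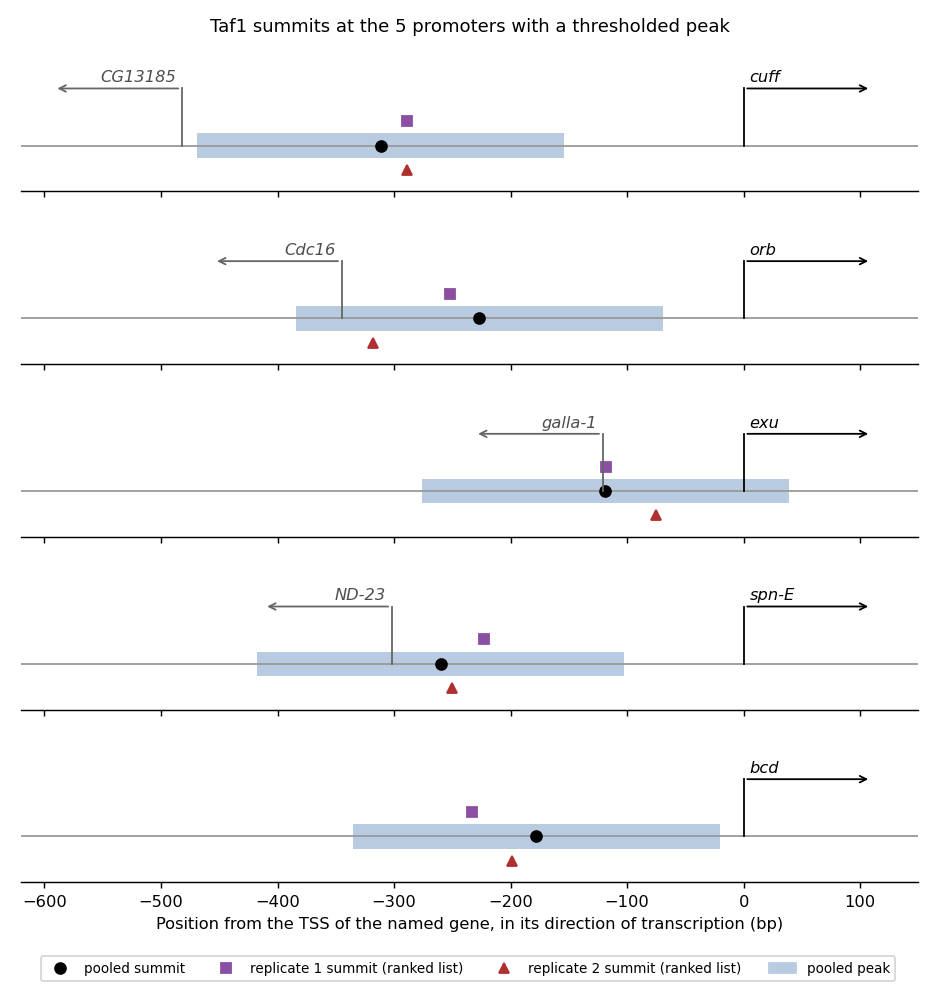
Position of Taf1 summits at the 5 promoters, in bp from the TSS of the named gene and in its direction of transcription. Arrows mark start sites, the blue bar is the pooled peak, the black dot its summit, and squares and triangles are the summits of replicates 1 and 2 in their ranked lists. At cuff, orb, exu and spn-E the pooled summit lies between 2 divergent start sites and nearer to the neighbour (171, 118, 2 and 42 bp) than to the named gene (311, 227, 119 and 260 bp).

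The promoter sequences of 3 of these genes are shown. The promoters of orb and spn-E were each shared with a neighbour, and that of bcd was not. The windows were placed on the TSS of the named gene, so each holds the summit but only part of the peak. Each window runs 5′ to 3′ on the strand of the gene and holds 300 bases, from 280 before the TSS to 19 after it, with the TSS at base 281 (RefSeq release 6 assembly). Capitals mark 7 sets of core promoter letters, searched on either strand. They are the TATA box as TATAAA, and the DNA replication-related element as TATCGATA. From the motifs that Ohler listed for fly promoters come motif 1 as GGTCACAC, the E-box within motif 5 as CAGCTG, and motif 7 as CATCNCTA. The initiator was searched as TCAGT, and the site of the GAGA factor as GAGAG. The orb window is chr3R:23280837-23281136, minus strand, with the Taf1 summit at base 54. The spn-E window is chr3R:15837139-15837438, plus strand, with the summit at base 21. The bcd window is chr3R:6759447-6759746, minus strand, with the summit at base 103.
orb: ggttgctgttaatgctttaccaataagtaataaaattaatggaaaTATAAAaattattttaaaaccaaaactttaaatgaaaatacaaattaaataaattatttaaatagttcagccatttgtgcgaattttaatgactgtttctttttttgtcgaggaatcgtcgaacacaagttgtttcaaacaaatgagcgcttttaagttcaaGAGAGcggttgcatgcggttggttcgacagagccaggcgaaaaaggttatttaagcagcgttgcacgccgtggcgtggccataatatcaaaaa
spn-E: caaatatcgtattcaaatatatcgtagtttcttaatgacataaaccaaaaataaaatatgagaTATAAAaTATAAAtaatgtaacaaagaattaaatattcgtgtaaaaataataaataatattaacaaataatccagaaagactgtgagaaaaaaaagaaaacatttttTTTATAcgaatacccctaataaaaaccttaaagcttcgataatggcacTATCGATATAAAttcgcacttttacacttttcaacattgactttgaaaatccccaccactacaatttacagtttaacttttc
bcd: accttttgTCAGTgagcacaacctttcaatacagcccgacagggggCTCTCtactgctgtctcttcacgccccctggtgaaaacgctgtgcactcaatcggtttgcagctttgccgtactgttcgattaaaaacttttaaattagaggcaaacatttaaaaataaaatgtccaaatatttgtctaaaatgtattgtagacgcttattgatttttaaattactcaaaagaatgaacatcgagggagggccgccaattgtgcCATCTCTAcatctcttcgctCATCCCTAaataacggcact

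The orb window held 1 TATAAA, starting −235 bp from the orb TSS and −8 bp from the Taf1 summit. It also held 1 GAGAG, −73 bp from the TSS and 154 bp from the summit. The spn-E window held TATAAA at −217, −210, −110 and −56 bp from its TSS, the copy at −110 on the opposite strand, and a TATCGATA at −62 bp that overlaps the last copy. From the spn-E summit the TATAAA copies were 43, 50, 150 and 204 bp away, and the TATCGATA 198 bp. The bcd window held TCAGT at −272 bp, GAGAG on the opposite strand at −234 bp, and CATCNCTA both at −20 bp and starting on the TSS itself. From the bcd summit these matches were, in the same order, at −94, −56, 158 and 178 bp. The base composition differed, with 33.3% G and C at orb, 24.0% at spn-E and 41.3% at bcd. A match describes the letters of these windows and was not treated as a binding site.

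Over the same window of each gene's most upstream TSS, TATAAA was present at 15 of the 31 genes (48.4%), compared with 46.8% of all protein-coding genes and 47.8% of those with a promoter summit. The initiator letters TCAGT were also present at 15 (48.4%), against 50.5% of all genes. TATCGATA was found at 5 genes (exu, nos, qin, spn-E and tej; 16.1%), against 9.36% of all promoters and 14.4% of occupied ones. GGTCACAC was found at 6 (armi, gcl, piwi, pum, swa and zuc; 19.4%), against 6.61% and 9.78%, and none of these 6 genes had a promoter summit. Of all 923 protein-coding genes with GGTCACAC, 181 had one, and 6 genes are too few to tell these shares apart. CATCNCTA was present at 3 genes (bcd, grk and rhi; 9.68%), against 5.85% and 12.3%. CAGCTG was present at exu alone (3.23%), against 16.7% and 23.0%. GAGAG was present at 6 genes (19.4%), against 29.1% and 29.8%. The differences rest on 1 to 6 genes and were not tested.

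Among the localized maternal factors, bcd encodes the homeodomain protein Bicoid, the anterior determinant whose mRNA is anchored at the front of the egg. Its peak (FBgn0000166, chr3R:6759486-6759801, dm6) had its summit 178 bp upstream of the TSS. The authors' signal was 29.0 in replicate 1 and 30.4 in replicate 2, both in the ranked lists only, and 55.2 in the pooled list, where the peak stood at rank 2425 of 2658. The replicates were close, with a log2 ratio of replicate 2 to replicate 1 of 0.07. The authors' −log10 of the global irreproducible discovery rate (IDR) was 1.88 and 1.95, just under the value of 2.0 that the thresholded lists start from, and the peak was in the conservative pooled list. The second gene, exu, encodes Exuperantia, which is needed to localize bcd mRNA. Its peak (FBgn0000615, chr2R:20671044-20671359) had a pooled signal of 71.4 at rank 1830. The exu signal was 53.0 in replicate 1, in the thresholded list, and 19.6 in replicate 2, in the ranked list only. The replicates thus differed, with a log2 ratio of −1.43, and the peak was not in the conservative list. The −log10 global IDR of exu was 2.62 in replicate 1 and 0.34 in replicate 2. The pooled summit lay 2 bp from the TSS of galla-1 and 119 bp from that of exu.

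The other 10 localized factors had no promoter summit in the thresholded list. Swallow (swa), which like exu acts on bcd mRNA, had its nearest thresholded summit, of signal 197.6, at 803 bp, and this summit lay closer to Marf, the mitofusin gene. For nos, the posterior determinant and translational repressor, the nearest thresholded summit was 5104 bp away and 42 bp from CG42359. For stau, which encodes a double-stranded RNA-binding protein that carries osk and bcd mRNA, it was 16123 bp away and closest to pAbp. Oskar nucleates the germ plasm, Vasa is its DEAD-box helicase and Tudor a scaffold protein of the polar granules. The distances of their genes were 12466 bp for tud, 38215 bp for osk and 51801 bp for vas, beside a median of 12192 bp over all protein-coding genes. The pole cell genes pgc, which encodes an inhibitor of transcription elongation in pole cells, and gcl, which is needed for pole cells to form, were 12671 and 27415 bp away. For grk, which encodes the TGF-alpha-like signal from the oocyte, the distance was 29766 bp.

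Among the translational regulators, orb, which encodes the cytoplasmic polyadenylation element-binding protein of the oocyte, had the only promoter summit. Its peak (FBgn0004882, chr3R:23280925-23281240) had a pooled signal of 80.4 at rank 1594 and was in the conservative list. The orb signal was 55.4 in replicate 1, in the thresholded list, and 29.8 in replicate 2, in the ranked list only. Replicate 2 was lower, with a log2 ratio of −0.89. The −log10 global IDR of orb was 2.46 in replicate 1 and only 0.06 in replicate 2. The summit was 227 bp upstream of orb and 118 bp upstream of Cdc16, which encodes a subunit of the anaphase-promoting complex. The nearest thresholded summit was 10049 bp away for smg, the RNA-binding repressor of nos mRNA, and 15306 bp away for cup, the eIF4E-binding repressor. The distances were 21383 bp for me31B, a DEAD-box helicase of repressed mRNPs, 41256 bp for png, a kinase that controls translation at egg activation, and 129879 bp for BicC, a KH-domain RNA-binding protein.

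Among the piRNA pathway genes, cuff, a member with rhi and del of the complex that licenses transcription of dual-strand piRNA clusters, had the strongest promoter signal of all 31 genes. The cuff signal was 58.2 in replicate 1 and 42.4 in replicate 2, both in the thresholded lists, and 105.0 in the pooled list at rank 1041. It was the only one of the 31 genes with a promoter summit in the thresholded list of each replicate, and replicate 2 was the lower, with a log2 ratio of −0.45. The peak (FBgn0260932, chr2R:11885598-11885913) had its summit 311 bp upstream of cuff and 171 bp from the TSS of CG13185. The helicase gene spn-E had a peak (FBgn0003483, chr3R:15837001-15837316) with a pooled signal of 58.8 at rank 2294. Its signal was 39.4 in replicate 1 and 19.2 in replicate 2, in the ranked lists only. Replicate 2 was again lower, with a log2 ratio of −1.04, and the peak was not in the conservative list. The −log10 global IDR of spn-E was 1.74 in replicate 1 and 0.19 in replicate 2. The summit lay 42 bp from ND-23, a mitochondrial complex I subunit gene, and 260 bp from spn-E.

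The other 10 piRNA pathway genes had no thresholded promoter summit. The genes of the Piwi-family Argonautes piwi and aub lie near each other, and their nearest thresholded summit was the same one, 106 bp from the ribosomal protein gene RpL9, 16875 bp from piwi and 2819 bp from aub. For AGO3, the third Argonaute gene of this family, it was 675679 bp away at Chro, the longest distance of the 31, and the last thresholded peak of arm 3L ended at 22879025, before AGO3 begins at 23554593. The helicase gene armi had a summit of signal 113.3 at 645 bp, which lay 69 bp from eIF5B on the opposite strand. The distances were 6792 bp for qin, 7703 bp for tej and 9235 bp for krimp, all 3 Tudor-domain genes. They were 15006 bp for del, 32139 bp for rhi, which encodes a heterochromatin protein 1 relative, and 37286 bp for zuc, the nuclease that makes piRNA 5′ ends.

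The median distance from a TSS to the nearest thresholded summit was 12466 bp over the 31 genes and 12192 bp over all protein-coding genes. It was 12600 bp for the localized factors, 15300 bp for the translational regulators and 8470 bp for the piRNA pathway genes. At 29 of the 31 genes that summit lay closer to a TSS of another gene, against 86.8% of all protein-coding genes, the exceptions being bcd and pum. The summits just inside the window of 500 bp were those of cuff (311 bp) and spn-E (260 bp), and those just outside it were at pum (599 bp), armi (645 bp) and swa (803 bp).

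**Figure D2:**
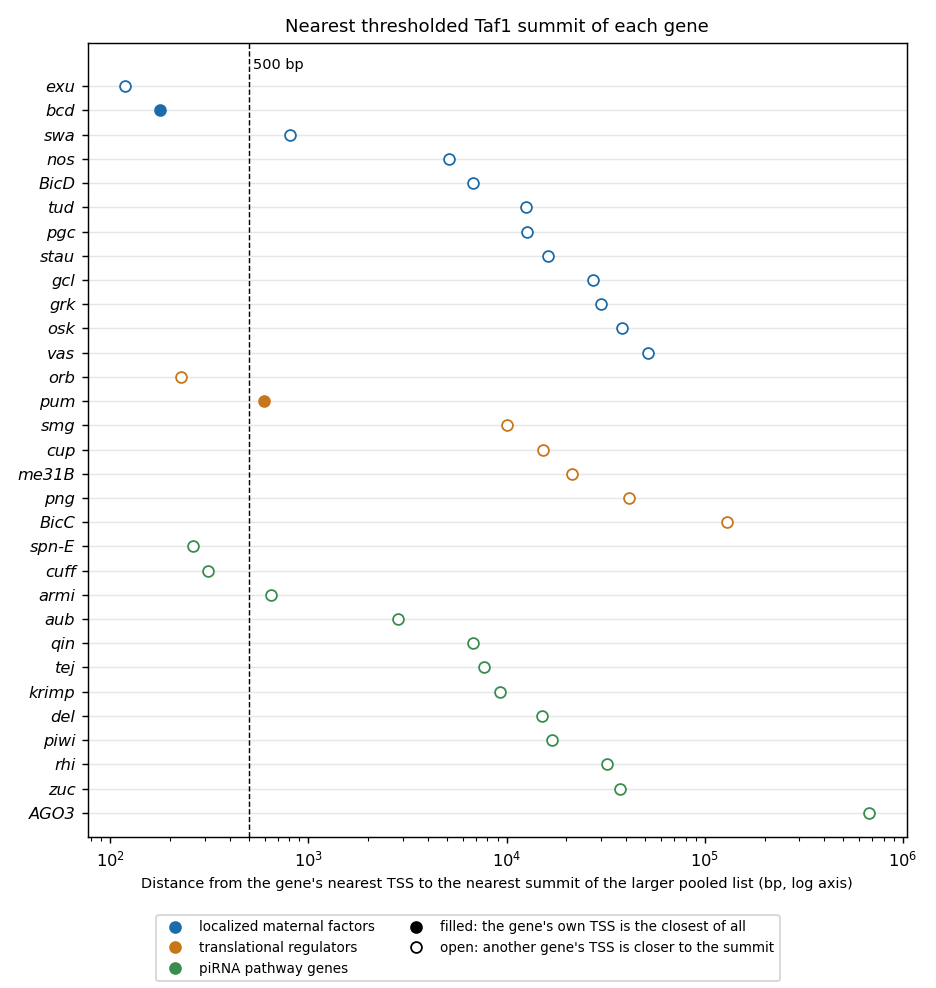
Distance in bp (log axis) from the nearest TSS of each of the 31 genes to the nearest summit of the larger pooled thresholded list, coloured by role, with filled points where no other gene's TSS is closer to the summit. The dashed line is at 500 bp: 5 genes lie to its left, and only bcd and pum are filled.

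Most of the 5 promoter summits lay at promoters shared by 2 genes. A head-to-head neighbour, meaning a protein-coding TSS on the other strand 1 to 1000 bp upstream, was present at 17 of the 31 genes, against 36.2% of protein-coding genes. Promoter summits were found at 4 of these 17 (23.5%, interval 6.81 to 49.9), against 24.3% of all genes with such a neighbour. Among the 14 without one, bcd alone had a summit (7.14%, interval 0.181 to 33.9), against 6.97%. In both classes the share was near the background. Each summit was then given only to its nearest TSS. By that rule 0 of the 17 kept a summit (interval 0.0 to 19.5), against 14.5% of all genes with such a neighbour. Bcd alone remained of the 31, against 9.56% of all genes. Of the 1405 promoter peaks of protein-coding genes, 578 (41.1%) were within 500 bp of 2 or more of them. That share counts peaks and not genes. A shared peak serves at least 2 genes, so the share over genes with a summit would be higher, and it was not computed. The distances between the paired start sites were 121 bp at exu, 302 bp at spn-E, 345 bp at orb and 482 bp at cuff. Close pairs without a thresholded summit included cup with CG13771 (52 bp), zuc with dgt2 (54 bp) and pgc with T3dh (99 bp).

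The count depended on the peak list and the window. The conservative list held promoter summits of 3 of the 31 genes (bcd, orb and cuff; 9.68%), against 11.4% of protein-coding genes. The list of replicate 1 held 3 (exu, orb and cuff), against 7.23%, and that of replicate 2 held 1 (cuff; 3.23%), against 10.6%. A window of 250 bp left bcd, exu and orb, against 10.7%, and no piRNA pathway gene. A window of 1000 bp added swa, pum and armi for a total of 8 (25.8%, interval 11.9 to 44.6), against 15.4%. Replicate 2 was thus the list with the lower count for these genes but the higher one for all genes. The contrast rests on 3 genes against 1. The exact intervals, 2.04 to 25.8% in replicate 1 and 0.0816 to 16.7% in replicate 2, overlap and cover both backgrounds.

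**Figure D3:**
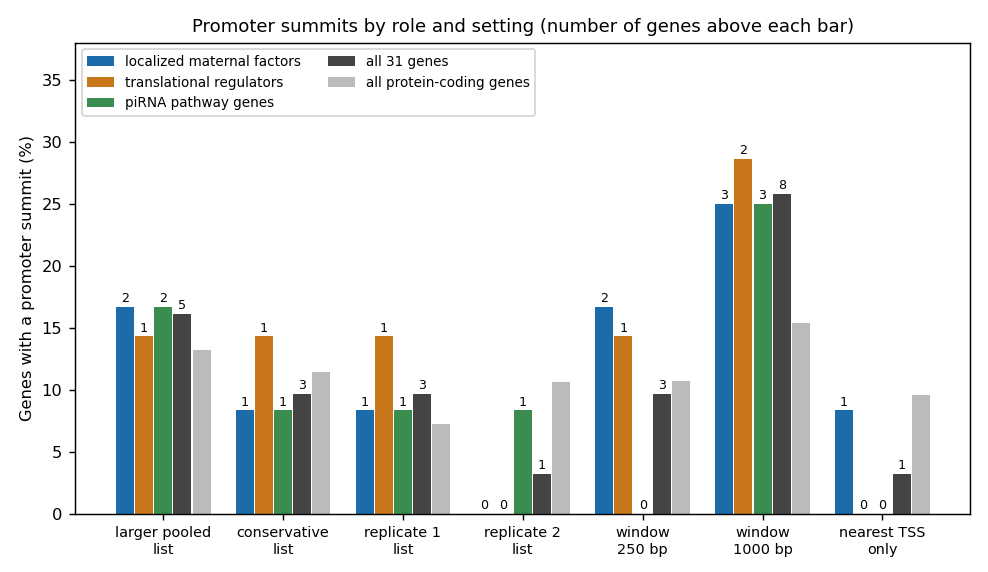
Percent of genes with a promoter summit (bars from 0, number of genes above each coloured bar) for the 3 roles, all 31 genes and all protein-coding genes (grey), by peak list, window and rule of assignment. The 31 genes range from 1 with a summit in the replicate 2 list or by nearest TSS to 8 with the window of 1000 bp.

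At the promoter peaks, 4 of the 5 genes had a lower signal in replicate 2 than in replicate 1. Of the 1405 promoter peaks, 1312 were found in both ranked lists, and 37.2% (488) of these had the lower signal in replicate 2. These peaks span all strengths, and the 5 genes were not compared with peaks of similar pooled signal. The median log2 ratio was 0.18 and its SD 0.65 across peaks, so exu (−1.43), spn-E (−1.04) and orb (−0.89) lay more than 1 SD below the median. Cuff (−0.45) and bcd (0.07) lay within 1 SD of it. With 1 library per replicate, a difference between libraries and a difference between embryo collections cannot be told apart. The pooled signals of the 5 genes, 55.2 to 105.0, can be set beside those of the 1850 occupied protein-coding genes, whose median was 99.3 and quartiles 72.7 and 159.4. The signal of cuff was above that median, that of orb lay between the lower quartile and the median, and those of exu, spn-E and bcd were below the lower quartile.

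**Figure D4:**
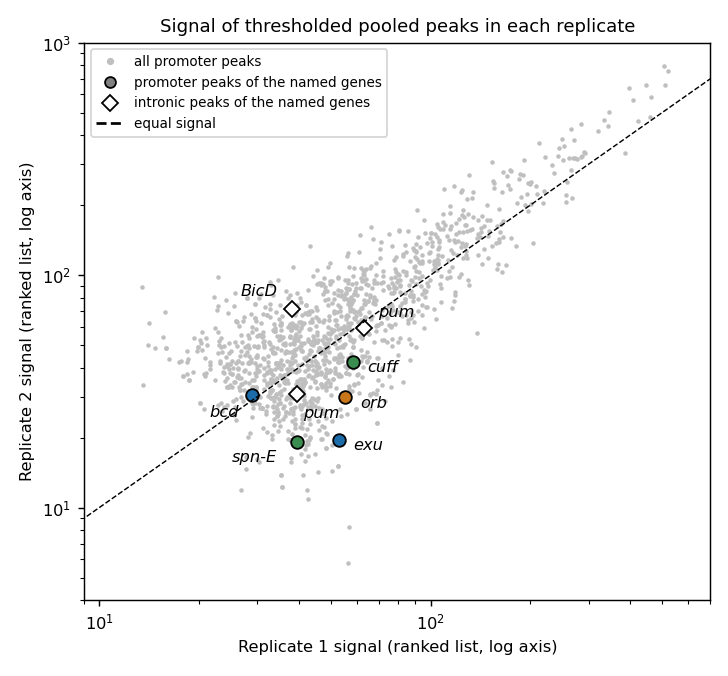
Authors' signal in replicate 1 and replicate 2 (both log axes) at promoter peaks (grey), at the promoter peaks of the 5 genes (circles) and at the intronic peaks of BicD and pum (diamonds); the dashed line marks equal signal. Exu, spn-E, orb and cuff lie below the line, bcd and the 2 pum peaks near it, and BicD above it.

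Inside gene bodies, thresholded summits were found in 2 of the 31 genes, BicD and pum (6.45%, interval 0.791 to 21.4), against 8.08% of protein-coding genes. All 3 summits were intronic, and none of the 5 promoter summits lay in the body of its gene. Both genes are long, BicD with 13611 bp and pum with 171340 bp, against a median of 4742 bp for the 31 genes and 2164 bp for protein-coding genes. Of the 7 genes of 10 kb or more, 2 had one (28.6%, interval 3.67 to 71.0), against 29.3% of all protein-coding genes of that length. Among the 12 piRNA pathway genes 0 had one, which allows a share of up to 26.5% by the exact interval. The sequences around the BicD summit and the stronger pum summit are shown because these peaks lay outside any promoter window. Each holds 201 bases on the strand of the gene with the summit at base 101: chr2L:17466342-17466542, minus strand, for BicD, and chr3R:9227339-9227539, minus strand, for pum. Capitals mark the same letters as in the promoters.
BicD: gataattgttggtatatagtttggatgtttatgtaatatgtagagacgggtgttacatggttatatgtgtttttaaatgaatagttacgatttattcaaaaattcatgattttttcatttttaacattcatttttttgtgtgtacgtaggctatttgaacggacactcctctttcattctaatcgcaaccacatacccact
pum: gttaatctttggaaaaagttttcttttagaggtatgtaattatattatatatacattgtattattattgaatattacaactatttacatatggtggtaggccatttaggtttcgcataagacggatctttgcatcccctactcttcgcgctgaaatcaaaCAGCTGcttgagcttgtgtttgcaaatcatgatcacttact

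The BicD window held none of the 7 sets of letters, and the pum window held 1 CAGCTG, 60 bp from the summit. A window at the weaker pum summit, not shown, also held none. In windows around all 2658 summits, TATAAA was present at 37.7%, TCAGT at 33.9%, GAGAG at 22.1% and CAGCTG at 7.56%. BicD encodes the adaptor that links localized mRNAs to dynein. Its intronic peak (FBgn0000183, chr2L:17466284-17466599) was 6773 bp from its own TSS and 5161 bp from that of Sgt, the nearest other gene. The BicD signal was 38.3 in replicate 1, in the ranked list only, and 71.4 in replicate 2, in the thresholded list, with 105.4 in the pooled list at rank 1036. Here replicate 2 was the higher, with a log2 ratio of 0.90. Pum encodes Pumilio, the RNA-binding repressor that acts with Nanos. Its stronger intronic peak (FBgn0003165, chr3R:9227281-9227596) was 599 bp from the nearest of its 4 TSSs. The signal there was 63.0 in replicate 1 and 59.4 in replicate 2, both thresholded, and 118.8 in the pooled list at rank 858. The replicates were close, with a log2 ratio of −0.08. The second pum peak (chr3R:9229203-9229518), 2521 bp from its TSS, had 39.7 in replicate 1 and 30.8 in replicate 2, in the ranked lists only, and 69.5 in the pooled list at rank 1895. All 3 peaks were in the conservative list, and the nearest other gene of both pum summits was the noncoding RNA gene lncRNA:CR45196, at 694 and 1228 bp.

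The ranked lists, which hold peaks before the reproducibility threshold, had promoter summits for many more of the genes. In the list of replicate 1, 20 of the 31 had one (64.5%, interval 45.4 to 80.8), against 49.7% of protein-coding genes. In that of replicate 2, 20 also had one (64.5%), against 64.2%. The longer pooled ranked list held 18 (58.1%), against 56.6%, and the shorter one 17 (54.8%), against 51.4%. Promoter summits in the ranked lists of both replicates were found for 15 genes, against 37.1% of protein-coding genes. By role, the replicate 1 list held 9 of 12 localized factors, 6 of 7 translational regulators and 5 of 12 piRNA pathway genes, and the replicate 2 list held 8, 6 and 6. In the longer pooled list the numbers were 7, 5 and 6, and in the shorter one 8, 5 and 4. The share of translational regulators was the highest of the 3 roles in each list and that of piRNA pathway genes the lowest, but the exact intervals of all 3 overlapped in every list and the difference was not tested. In the replicate 1 list, for example, they ran from 42.1 to 99.6% for translational regulators and from 15.2 to 72.3% for piRNA pathway genes.

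In the longer pooled list 13 genes had a promoter summit that the thresholded list lacked. The strongest were those of gcl, with a signal of 53.9, smg (51.9), nos (47.6), stau (42.7), pum (37.5) and tud (36.5). All were below the signal of bcd, 55.2, the weakest promoter summit of the 5 thresholded ones. For gcl the signal was 32.7 in replicate 1 and 23.7 in replicate 2, and in both replicates the summit was closer to CG14767 than to gcl. For smg it was 24.2 and 33.3. For nos it was 24.0 and 23.9, with the summit closer to CG11779 than to nos. The stau peak was found in replicate 1 alone, with 28.5. The tud signal was 27.9 in replicate 1 and 4.83 in replicate 2, at different summits, −190 and −57 bp from the TSS. The promoter of pum had 37.9 in replicate 1 and 29.9 in replicate 2, lower than its stronger intronic peak in both. The other 7 were qin (33.5), piwi (29.4), BicC (28.7), cup (28.1), pgc (21.1), zuc (17.8) and tej (12.6). Of the 13 pooled summits, 9, that of gcl included, were closest to the gene's own TSS, and those of nos, BicC, piwi and zuc were closer to another gene.

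Several genes had a ranked promoter summit in 1 replicate only, or far down the list of 1 replicate. Vas had a promoter summit in the replicate 1 list alone, with a signal of 23.2 at rank 6900 of 33381, and osk in the replicate 2 list alone, with 11.5 at rank 38755 of 94109. The osk summit was closer to the noncoding RNA gene lncRNA:osk than to osk. Pgc had 13.3 in replicate 1, with the summit at 210 bp from a TSS. In replicate 2 it had 2.48 at rank 92369, with a different summit at −204 bp that was closer to T3dh. Swa (7.61), png (7.77), rhi (15.3) and tej (5.08) were found in replicate 2 but not in replicate 1, and me31B (18.9) in replicate 1 but not in replicate 2. The swa summit of replicate 2 was closer to Marf. The promoter of BicD had 11.8 in replicate 1, below the 38.3 of its intronic peak in the same list, and was not found in replicate 2. Grk was found in the shorter pooled list alone, with 21.3. In no ranked list was a promoter summit found for 5 of the 31 genes, against 19.2% of all protein-coding genes, so the number was near the background. They were aub, AGO3, armi, krimp and del, all among the 12 genes listed here under the piRNA pathway. That distribution over the roles was not tested. Armi had a thresholded summit of signal 113.3 at 645 bp, outside the window of 500 bp. A gene outside a list of peaks is not shown to lack Taf1.

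**Figure D5:**
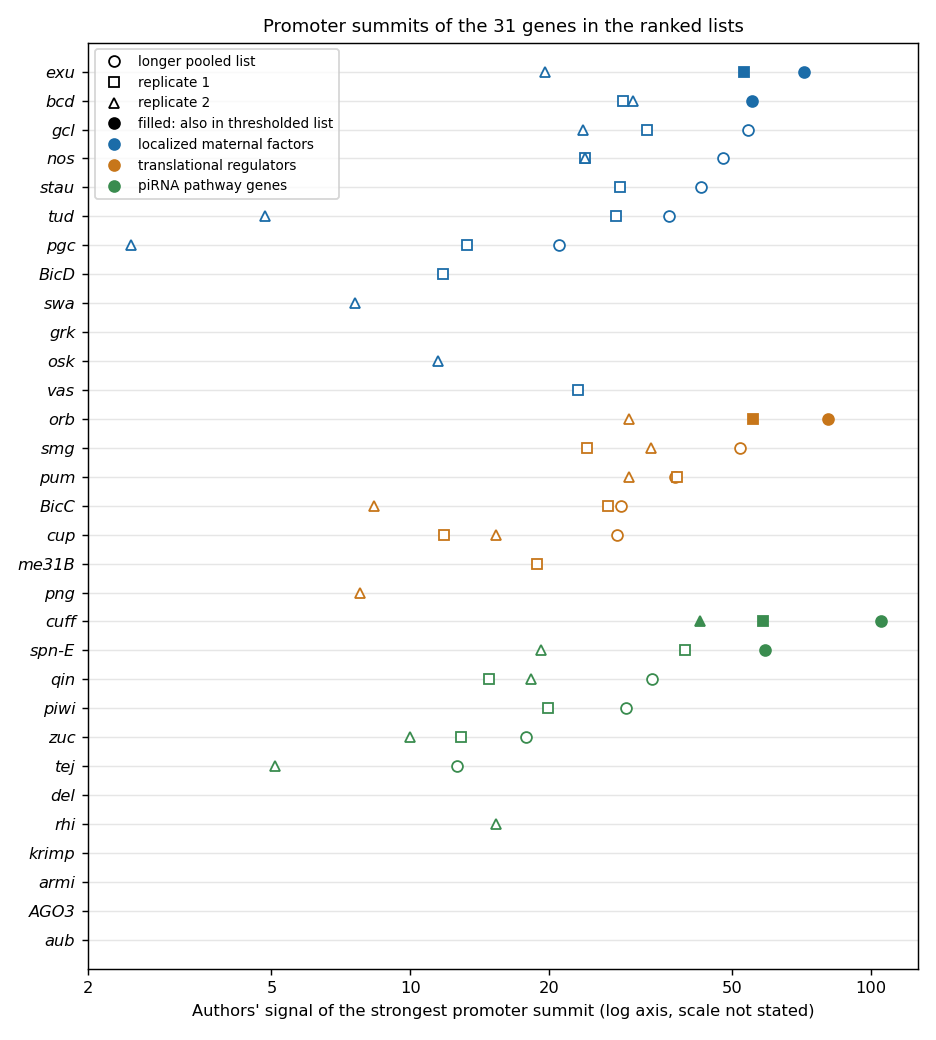
Authors' signal (log axis) of the strongest promoter summit of each of the 31 genes in the longer pooled list (circles) and in the ranked lists of replicates 1 (squares) and 2 (triangles), coloured by role and filled where the peak is also in the matching thresholded list. The filled pooled points are exu, bcd, orb, cuff and spn-E, and the rows without a point are aub, AGO3, armi, krimp and del, with no promoter summit in any ranked list, and grk, whose summit is in the shorter pooled list, which is not plotted.

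Other genes of the same pathways were counted from 3 further lists, and 9 of 64 had a promoter summit (14.1%, interval 6.64 to 25.0), against the same 13.2% of protein-coding genes. Of 18 germ plasm and RNA localization genes, 4 had one (22.2%): glo, which encodes an RNA-binding protein (pooled signal 143.4), the chaperone gene Hsp83 (127.9), the actin nucleator gene capu (108.4) and egl, whose product binds localized RNAs with BicD (87.5). Of 22 translational regulators, 3 had one (13.6%): tral (135.1), the NHL-domain repressor gene brat (80.2) and the deadenylase subunit gene Pop2 (67.6). Of 24 piRNA pathway genes, 2 had one (8.33%): papi, whose product holds piRNA factors at mitochondria (323.5), and nbr, which encodes a piRNA-trimming nuclease (59.1). The papi signal was 143.2 in replicate 1 and 180.0 in replicate 2, both thresholded, above the promoter signals of all 31 genes in each replicate. The glo signal was 66.9 in replicate 1 and 75.7 in replicate 2, again both thresholded. In 7 of the 9 the summit was closest to the gene's own TSS, and those of tral and nbr were closer to sti and Noc2. The summits of glo, brat and Pop2 were also within 500 bp of a second gene, namely COX5A, Polr1D and CG6928.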

How the data were processed

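Per the labels, ChIP-seq was made from 2 biological replicates of embryos carrying Taf1-eGFP, with chromatin sonicated to 200 to 800 bp and coordinates on dm6. No label or file header names the aligner or the peak caller, and the possible control that the labels list was not used here. There were 8 deposited peak lists. Each replicate had a ranked and a thresholded list (33551 and 1283 peaks in replicate 1, 95427 and 1994 in replicate 2). The pooled reads had ranked lists of 49647 and 60624 peaks, a conservative thresholded list of 2181 and a larger one of 2665. Each peak carries the authors' deposited signal, whose scale is not stated, and signals of the pooled and the single-replicate lists are given side by side without a test. In the ranked lists the authors deposited the −log10 of the global irreproducible discovery rate (IDR), and all 2658 peaks of the larger list on chromosome arms had an IDR of 0.01 or less. Each pooled ranked list also held 4 columns of per-sample values that no name ties to a replicate, and these were not used. Depth is unknown, so precision is given only as exact Clopper-Pearson 95% intervals over genes.

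Genes and TSSs were those of Ensembl release 115 (13968 protein-coding genes on the arms), and sequences were read from the RefSeq copy of the release 6 genome, in which all 31 genes had the same span. The symbol of 1 gene was updated, nos to nanos. Summits off the arms were left out, and thresholded pooled peaks were matched to the replicate lists by an overlap of at least 1 bp. For the rest of the 31 genes, the strongest promoter summit of each ranked list was taken without matching. Such summits can differ in position between lists. Promoter windows, gene bodies, neighbours and letters were searched with Python 3.11.15, numpy 2.4.6, pandas 2.3.3, scipy 1.17.1 and matplotlib 3.10.9, and the functions were tested on simulated peaks. The 31 genes, their roles and the 3 further lists were chosen with earlier results of these data known. Genes were named by rule: the 31 genes, every gene sharing one of their promoter summits, and up to 4 of the strongest of each further list. Genes nearest to the other summits were named after their values were seen. With 1 group, no conditions could be compared and no p-value is given. As alternatives, promoter summits were counted in the conservative list, in either replicate, within 250 or 1000 bp, and for the nearest TSS alone, while gene body summits were also counted over 500 bp from a TSS.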

Additional observations from a re-analysis of the deposited data

How the results depend on the processing

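The promoter counts of the 31 genes and of their 3 roles were small, and each moved by more than 1.5 times under some alternatives. Here a replicate left out means that the authors' thresholded list of the other replicate was used. Those lists held 1281 peaks on the arms in replicate 1 and 1988 in replicate 2, against 2658 in the pooled list. Promoter summits of the 31 genes numbered 3 in the conservative list, 3 with 250 bp and 8 with 1000 bp. They numbered 1 by nearest TSS, and from 1 to 3 with either replicate left out. Localized factors, 2 of 12, numbered 1 in the conservative list, 1 by nearest TSS and 0 to 1 with either replicate left out. Translational regulators, 1 of 7, numbered 2 with 1000 bp, 0 by nearest TSS and 0 to 1 with either replicate left out. The piRNA pathway genes, 2 of 12, numbered 1 in the conservative list, 0 with 250 bp, 0 by nearest TSS and 1 with either replicate left out. The cause was not tested beyond what the narrower lists and windows remove. Gene body summits, in 2 genes, were in 1 to 2 with either replicate left out: without replicate 2 the BicD summit was lost, while without replicate 1 both genes had one. They stayed at 2 in the conservative list and over 500 bp from a TSS. The 9 other pathway genes numbered from 6 to 12, within 1.5 times of 9 under every alternative. Signals in the thresholded lists of the replicates, on a scale that may not match the pooled one, were 58.2 and 42.4 for cuff, and 53.0 for exu and 55.4 for orb in replicate 1; bcd and spn-E are in neither list and have no such value. No paired analysis was possible because the study has 1 group. Depth is unknown, so a gene missing from a list cannot be read as unoccupied.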

Other observations

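Some summits that were counted for or lay nearest to genes of the piRNA pathway belong to the surroundings of other genes. The summit closest to del, 15006 bp from its TSS, is the one counted for nbr, and it lies 89 bp from Noc2. The summit closest to both piwi and aub lies at RpL9, with a signal of 55.7.

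Rank by signal and the authors' reproducibility measure ordered some of the genes differently in the longer pooled list. The gcl peak, with a signal of 53.9 at rank 2975 of 60203, had a −log10 global IDR of 0.10, while the bcd peak, with 55.2 at rank 2865, had 2.40. The weaker nos and stau peaks had 1.53 and 1.19, nearer to the threshold of 2.0 than gcl. These are values of 1 pooled list and were not tested.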
